A study of Mus musculus with 8 samples.

Results

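The cytosolic ribosomal protein genes encode the proteins that, together with the ribosomal RNAs, build the ribosome of the cytoplasm. They were taken as every protein-coding gene of the normalised table whose symbol is Rpl or Rps followed by a number, plus *Rpsa*, *Rplp0*, *Rplp1* and *Rplp2*, with the Rps6k kinases left out. The rule found 79 of 25485 genes, of which 48 encode proteins of the large (60S) subunit and 31 of the small (40S) subunit. A few ribosomal protein genes with other symbols, such as *Rps3a1* and *Fau*, fell outside it and are given separately.

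mRNA was sequenced from sorted, EpCAM+ CD45- Lgr5-GFP+ intestinal crypt cells, 1 library per mouse, with 4 mice labelled β-cat GOF; Mll1-/- (called hom here) and 4 labelled β-cat GOF; Mll1+/- (het). Mutations were induced at an age of 4 to 6 weeks by tamoxifen (50 mg/kg) on 3 days, and cells were taken 10 days later. All mice carried Lgr5-EGFP-IRES-CreERT2, so recombination was limited to cells that use the *Lgr5* promoter, and all carried 1 allele of β-catenin that loses exon 3 and gives a stabilised protein (β-cat GOF). By design, recombined cells lose floxed *Mll1* on both alleles in hom mice and on 1 allele in het mice. Cells were sorted on Lgr5-GFP and not on recombination, and the paper describes non-recombined crypts that express Mll1 in hom mice. The share of unrecombined cells in the libraries is not known here. The sample labels used here do not give the sex of the mice, and the paper's animals were of both sexes. Its part in the values was not tested. No mice without the β-catenin mutation or with 2 unfloxed *Mll1* alleles were analysed here. The comparison is thus that of losing the remaining *Mll1* allele in cells with active Wnt signalling, as far as the sorted cells had recombined.

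Each ribosome holds most ribosomal proteins in a single copy, and growing cells spend a large part of their transcription and translation on them. Their mRNAs belong to the TOP class, which begins with a C followed by an unbroken tract of pyrimidines at the 5′ end, and mTOR signalling controls the translation of this class through that tract. Free RPL5 and RPL11, bound to 5S ribosomal RNA, inhibit Mdm2 and so stabilise p53 when ribosome assembly fails. The genes also left many processed pseudogenes in the mouse genome, copies of their mRNAs that can resemble the gene so closely that a short read may fit both.

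The start of the transcripts was read from RefSeq promoter windows on GRCm38.p6, which cover 250 bases before and 50 bases from an annotated start. They gave 1 window (the first listed) for 59 of the 79 genes. An unbroken run of C and T over the annotated start of at least 5 bases was found in 18 of them (30.5%), against 9.95% of 27025 genes, and a run of at least 10 bases in 11 (18.6%), against 2.35%. Annotated starts can lie a few bases off the start in use, and a run that misses the annotated base was not counted. 5 starts are shown to let the tract be seen, from 10 bases before to 20 bases from the annotated start, with the run in capitals. They are *Rps6*, one of the genes whose libraries separated by genotype, *Rpl15*, one of the most variable genes, *Rplp2* and *Rpl38*, named below, and *Rpl7a*. The run of *Rpl7a* was the longest (21 bases) and begins before the bases shown.
Rps6: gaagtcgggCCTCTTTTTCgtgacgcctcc
Rpl15: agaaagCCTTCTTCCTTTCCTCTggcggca
Rplp2: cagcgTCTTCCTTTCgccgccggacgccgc
Rpl38: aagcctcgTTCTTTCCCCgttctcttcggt
Rpl7a: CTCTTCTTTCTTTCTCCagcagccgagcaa

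These windows lie at chr4:86857348-86857377 (minus strand), chr14:18270967-18270996 (minus), chr7:141447641-141447670 (plus), chr11:114668570-114668599 (plus) and chr2:26910797-26910826 (plus). The run over the start was 10 bases long in *Rps6*, *Rplp2* and *Rpl38* and 17 bases long in *Rpl15*. Short motifs were looked for on both strands of the same windows. The letters CCGGAAG, the core bound by ETS factors, were in 23 of the 59 windows (39%), against 9.12% of all windows, and GGGCGG, the core of an Sp1 site, in 35 (59.3%), against 35.9%. TATAAA was in 5 windows (8.47%, all windows 14.2%), and AAGATGGC, a YY1 core, in 4 (6.78%, all windows 2.88%). CACGTG, an E-box, was in 5 windows (8.47%, all windows 7.24%). Of these letters, CCGGAAG showed the largest gap between the ribosomal protein genes and all genes. A match in letters is a description of the window and no evidence of binding.

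Expression of a gene is given in CPM, its counts divided by the library total after TMM scaling and given per 1e6 counts, and levels of different genes are compared as CPM per kb of the deposited gene length. Counts on genes ranged from 14468751 to 16847793 per library. Mitochondrially encoded genes took 17.1 to 27.1% of them in hom and 23.3 to 30.1% in het libraries. *Kmt2a*, which encodes Mll1, was not lower in the libraries labelled hom (63.5 ± 10.7 CPM) than in het (53.8 ± 7.45 CPM, SD, n = 4 each, adjusted p = 0.710, edgeR), and counts are summed over the whole gene, so the genotypes are used as labelled. Epithelial markers were abundant in every library (summed CPM 2508 to 3750.3 for 5 genes), whereas *Ptprc*, *Cd3e*, *Cd79a*, *Col1a1*, *Col3a1* and *Pdgfra* stayed under 1 CPM. Summed stem cell markers (8 genes) were at 10565 to 17162 CPM in hom and 22925 to 27284 CPM in het libraries, and enterocyte markers (6 genes) at 98.4 to 139 and 194 to 289 CPM. Goblet markers (7 genes) were at 471 to 979 and 306 to 493 CPM, Paneth markers (7 genes) at 1329 to 2540.3 and 1964 to 4739.9 CPM. Stromal markers (5 genes, in hom libraries mostly *Vim*) were at 50.2 to 120 and 5.23 to 11.6 CPM, immune (6 genes) at 1.24 to 6.31 and 2.45 to 6.50 CPM, enteroendocrine (6 genes) at 2.36 to 7.36 and 7.30 to 53.2 CPM, tuft (4 genes) at 1.03 to 6.72 and 0.775 to 2.81 CPM, and erythroid (2 genes) at 0 and 0 to 0.129 CPM. The stem sum was mostly *Olfm4*, which was lower in every hom library than in every het library. *Slc12a2* was so too, with 1168 to 1740 CPM in hom and 2155 to 2919.5 CPM in het libraries. Without these 2 genes, the other 6 stem markers, *Lgr5* among them, summed to 1316 to 1654 CPM in hom and 1489 to 1668 CPM in het libraries, which overlap. Of the 6, *Axin2* was higher in every hom library (185 to 267 CPM in hom and 149 to 183 CPM in het). The full sums of stem, enterocyte, epithelial and stromal markers did not overlap between the genotypes, and their part in the values of the ribosomal protein genes was not tested. In bulk samples, a smaller share of cells of a type and less RNA per cell cannot be told apart.

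The 79 genes together held 2.74, 2.81, 2.71 and 2.60% of the counts in the hom libraries J_7075, J_7096, J_7135 and J_7136, and 2.77, 2.61, 2.45 and 2.42% in the het libraries J_7079, J_7100, J_7134 and J_7139. The mean share was 2.71 ± 0.0882% in hom and 2.56 ± 0.164% in het (SD, n = 4 each). Hom and het values overlapped. Out of the counts that are not mitochondrially encoded, the order of the means turned, with 3.46 ± 0.157% in hom and 3.50 ± 0.247% in het. The order of the means therefore depended on the denominator, and neither denominator separated the genotypes.

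The levels of the single genes were far from equal. 78 of the 79 passed the filter on low counts, with 97 to 62319 counts per library. Their mean level over the 8 libraries ranged from 7.74 to 1543 CPM per kb with a median of 65.7 CPM per kb, and the gene at the 90th percentile stood 50.1-fold above the gene at the 10th. mRNAs of proteins that are mostly needed in equal number were thus counted at levels that differed by orders of magnitude. The deposited length covers all annotated exons of a gene (2697 bases for *Rpl11*, which has 534 coding bases). Levels per kb, and the order of the genes by them, therefore also depend on the annotation. Without division by length, the gene at the 90th percentile stood 30.6-fold above that at the 10th.

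**Figure D1:**
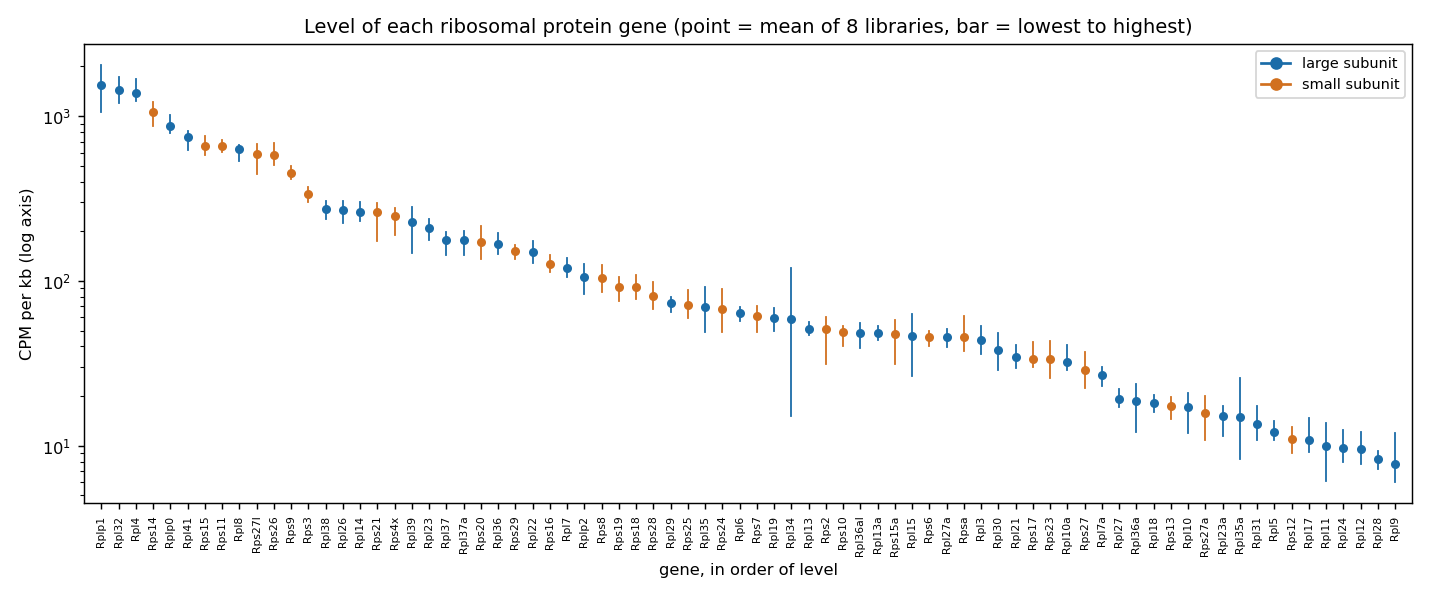
Level of 76 of the 78 tested ribosomal protein genes as CPM per kb on a log axis, in order of level; points are means of the 8 libraries and bars run from the lowest to the highest library. The levels run from *Rplp1* at 1543 CPM per kb to *Rpl9* at 7.74 CPM per kb, and for most genes the bar is short against the distance between genes.

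*Rplp1*, an acidic protein of the ribosomal stalk that recruits translation factors, was highest, with 1543 CPM per kb (1062 to 2045 over the libraries). *Rpl32* followed with 1437 CPM per kb (1192 to 1735), *Rpl4* with 1387 (1234 to 1679), and *Rps14*, also among the 5 highest, was at 1055 (871 to 1216). The ranges of *Rplp1*, *Rpl32* and *Rpl4* overlapped. *Rpl4* alone, a large-subunit protein that lines the tunnel through which new peptides leave the ribosome, held 10.5% of the counts of all 79 genes. At the other end stood *Rpl9* (7.74 CPM per kb, 6.03 to 11.99), *Rpl28* (8.30, 7.25 to 9.24), *Rpl12* (9.59, 7.77 to 12.05), *Rpl24* (9.69, 8.02 to 12.5) and *Rpl11* (10.0, 6.12 to 13.7), whose ranges overlapped as well. All 5 lowest genes encode proteins of the large subunit. Of the exonic bases, 47.0% in *Rpl24*, 9.95% in *Rpl28*, 5.17% in *Rpl12* and 0% in *Rpl9* and *Rpl11* overlapped other annotated genes. What such overlap does to the levels was not tested. The median level was 91.2 CPM per kb for small-subunit and 51.4 CPM per kb for large-subunit genes.

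*Rpl3l*, a paralogue of *Rpl3* known from skeletal and heart muscle, was the gene left out by the filter, with 0 to 1.03 CPM. *Rpl10l*, known from testis, stayed at 0 to 0.0541 CPM and *Rpl39l* had 0 counts in every library; neither is in the normalised table. The paralogues *Rps27l*, which is known as a p53 target, and *Rpl36al* were expressed, at 593 and 48.4 CPM per kb. The gene that *Rps27l* resembles, *Rps27*, was counted at 28.9 CPM per kb, below its paralogue in every library. Most reads of *Rps27* and its assigned copies were counted on *Gm17241*, with a mean of 509.7 CPM. With their assigned copies, *Rps27* exceeded *Rps27l* in 5 of 8 libraries (428 to 674 and 410 to 636 CPM). *Rps27rt*, which carries the name of *Rps27* but was not assigned as a copy, was at 331 to 478 CPM. It is left out of these sums and would add to the side of *Rps27*. The order of the genes alone therefore does not hold for the sums.

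Reads were counted without strand and only where they mapped to a single place, so that a read shared by a gene and its pseudogene could be counted on either or on neither, and the level of a gene with close copies is uncertain. Words of 31 bases were compared between all annotated transcripts (GENCODE M21), and 706 pseudogenes shared at least 20% of their words with a ribosomal protein gene, of which 666 are in the count table. 76 of the 79 genes had at least 1 such copy in the count table, and *Rpl21* had the most (62). Pseudogenes held 26270 to 32915 CPM per library in sum and the 79 genes 24178 to 28855 CPM, so that by this definition more reads were counted on the copies, 109 to 116 for every 100 on the genes. The 286 pseudogenes that carry the name of a ribosomal protein gene held only 40.6 to 44.5 for every 100, so whether the copies or the genes held more depends on how copies are defined. For 53 genes, the copies assigned by shared words together exceeded the gene. The level of a gene per kb was lower the more copies it had (Spearman's rho -0.583, Pearson's r -0.362 on the log2 level, over 78 genes of the same libraries, given as a description). With the percent of a gene's words found in other genes, the level had almost no such relation (rho -0.117, r -0.0635). The number of copies, and not the share of words, thus went with the level. Summed with its copies, the gene at the 90th percentile stood 9.40-fold above that at the 10th, against 30.6-fold for the CPM of the genes alone, so the family sums were closer to each other than the genes.

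*Rpl11*, a large-subunit protein of the 5S particle that inhibits Mdm2, is the clearest example. It was at 30.3, 16.5, 31.2 and 29.8 CPM in the hom libraries and at 36.9, 16.9, 26.7 and 27.6 CPM in the het libraries, in the order of libraries given above. Its processed pseudogene *Gm10288* on chromosome 3 was at 241, 94.9, 216 and 256 CPM in hom and at 276, 88.9, 241 and 211 CPM in het libraries. The copy was thus counted several times as often as the gene, although over the 534 coding bases of *Rpl11* (stop codon left out) it differs by 1 substitution.

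A second copy, *Gm10036*, carries 4 substitutions in the same 534 bases and was counted at 59.2, 274, 56.0 and 55.0 CPM in hom and at 66.4, 296, 67.8 and 53.8 CPM in het libraries. J_7096 (hom) and J_7100 (het) stood apart in all 3: *Rpl11* and *Gm10288* were lowest in these 2 libraries and *Gm10036* was highest. *Rpl11* summed with all its copies was at 383, 463, 351 and 393 CPM in hom and at 441, 479.6, 396 and 343 CPM in het libraries, which is a smaller ratio of highest to lowest library than that of any of the 3 (log2 fold change -0.06, SE 0.13, adjusted p = 0.923, edgeR). In the family sum, these 2 libraries were the highest of their genotypes.

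**Figure D2:**
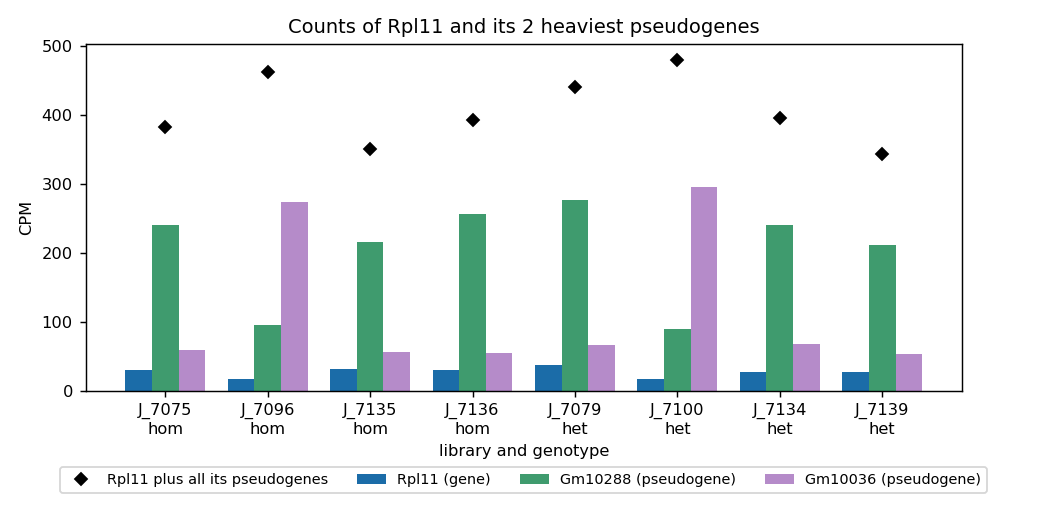
CPM of *Rpl11* and its pseudogenes *Gm10288* and *Gm10036* in each library (bars), with the sum of *Rpl11* and all its pseudogenes (diamonds). In J_7096 and J_7100, *Gm10036* is at 274 and 296 CPM and *Gm10288* at 94.9 and 88.9 CPM, and in the other 6 libraries the order of the copies is the reverse.

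The comparison of the genotypes asks whether the loss of the second *Mll1* allele goes with another expression of the ribosomal protein genes. None of the 78 tested genes passed an adjusted p of 0.1 in edgeR's quasi-likelihood test (lowest adjusted p 0.505), in either direction, where 0.0486% of all 16445 genes tested passed it as higher and 0.0365% as lower in hom. The fitted fold changes lay mostly a little below 0: 63 of 78 genes (80.8%) had a fold change below 0, against 49.2% of all genes tested, and the median log2 fold change was -0.093 (hom against het), against 0.0076 over all genes, a direction that turned without TMM scaling. The genes move together from library to library, so they are not 63 separate observations. Scaled by the counts alone, 17 of 78 were below 0 and the median was 0.093, but this scaling shifted the median of all genes to 0.19, so that relative to all genes the ribosomal protein genes lay about as far below as with TMM.

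Of the 31 small-subunit genes, 29 had a fold change below 0 with a median of -0.13. Of the 47 tested large-subunit genes, 34 had one below 0 with a median of -0.054. The libraries of the genotypes overlapped in these medians: the median deviation of the small-subunit genes from their own mean over all libraries was -0.070, 0.036, -0.26 and -0.040 in hom and 0.10, 0.14, 0.12 and -0.13 in het libraries (log2). J_7135 was lowest of the hom libraries and J_7139 lowest of the het libraries, and the latter lay below 3 of the 4 hom libraries. For the large-subunit genes, the medians were -0.050, 0.068, -0.14 and 0.0083 in hom and 0.088, 0.090, 0.10 and -0.13 in het. The medians thus also differed between libraries of the same genotype, with 1 het library among the lowest.

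**Figure D3:**
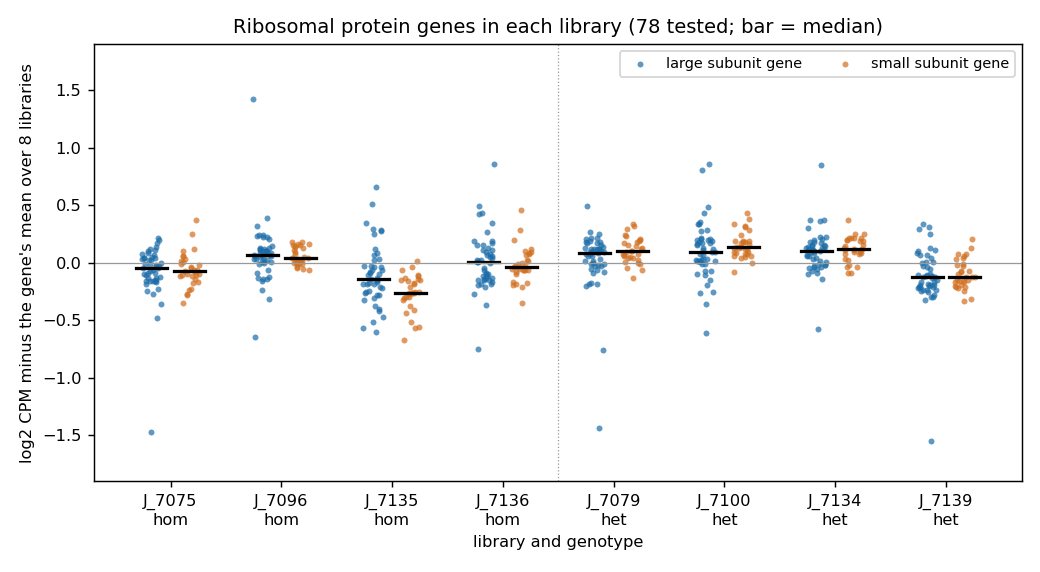
Deviation of the log2 CPM of each tested ribosomal protein gene from its mean over the 8 libraries, by library, for 47 large-subunit and 31 small-subunit genes; bars are medians. The het libraries J_7079, J_7100 and J_7134 have both medians above 0, while J_7139 (het), J_7135 (hom) and J_7075 (hom) have both below; the lowest point in each of J_7075, J_7079 and J_7139 is *Rpl34*.

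The numbers given to the libraries in the count file's header form 2 unbroken runs, each with 2 libraries of both genotypes; what the runs stand for is not given in the sources used here. In the first run (J_7075, J_7096, J_7079 and J_7100), the median difference between hom and het over the 78 genes was -0.11 on the log2 scale (all genes -0.0045), and 63 genes were lower in hom. In the second run, it was -0.089 (all genes -0.030), and 56 were lower. The small-subunit medians were -0.16 and -0.15 and the large-subunit medians -0.087 and -0.077. The direction of the medians was therefore the same in both runs.

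4 genes had an unadjusted p under 0.05, all of them lower in hom, which is 5.13% of the 78, near the 3.75% of all genes that were lower at this p. None was higher, where 5.4% of all genes were. 3 of them, *Rps14*, *Rps7* and *Rps26*, encode small-subunit proteins and are described here. *Rps14*, whose loss of 1 copy underlies the anaemia of the human 5q- syndrome, separated completely, with 1352, 1441, 1205 and 1393 CPM in hom and 1563, 1598, 1683 and 1444 CPM in het libraries. The highest hom and the lowest het library were nearly equal. The log2 fold change was -0.22 (SE 0.09, 95% interval -0.43 to -0.02, adjusted p = 0.522, edgeR).

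*Rps7*, which is needed for the maturation of 18S ribosomal RNA, was at 113, 125, 98.9 and 107 CPM in hom and at 141, 139, 139 and 120.3 CPM in het libraries. The het library J_7139 stood below the hom library J_7096, and the log2 fold change was -0.28 (SE 0.12, 95% interval -0.55 to -0.02, adjusted p = 0.524, edgeR). *Rps26*, which lies near the mRNA exit of the small subunit, was at 791, 863, 781 and 850.5 CPM in hom and at 988, 1015, 1055 and 815 CPM in het libraries. J_7139 again fell among the hom libraries, and the log2 fold change was -0.24 (SE 0.10, 95% interval -0.47 to -0.01, adjusted p = 0.534, edgeR).

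In 4 genes every hom library lay below every het library, and in none did every hom library lie above; 2.94% of all genes tested separated as lower and 3.34% as higher. *Rps14*, *Rps6* and *Rps19* were 3 of them. *Rps6*, the substrate of the S6 kinases downstream of mTOR, was at 68.6, 69.2, 70.7 and 63.7 CPM in hom and at 77.4, 76.7, 78.4 and 76.3 CPM in het libraries. The het values lay close together, and the log2 fold change was -0.18 (SE 0.11, adjusted p = 0.655, edgeR). *Rps19*, the gene mutated most often in Diamond-Blackfan anaemia, was at 354, 439, 387 and 437 CPM in hom and at 441, 447, 498 and 447 CPM in het libraries, with a log2 fold change of -0.18 (SE 0.10, adjusted p = 0.648, edgeR). With counts alone, none of the 78 genes separated as lower and 3 separated as higher, where 1.03% of all genes separated as lower and 7.02% as higher. The counts of separated genes rest on single libraries: without J_7139 (het), 17 genes separated as lower, where 4.85% of all genes did, and without J_7096 (hom), 8 did, where 5.32% of all genes did. Without any other library, 4 or 5 separated as lower. With 3 libraries in a group, separation is more frequent than with 4 for all genes alike. The number with an unadjusted p under 0.05 was 0 without J_7075, J_7135, J_7079, J_7100 or J_7134, 2 without J_7136 and 7 without J_7096, where 4.69% of all genes were lower at this p.

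**Figure D4:**
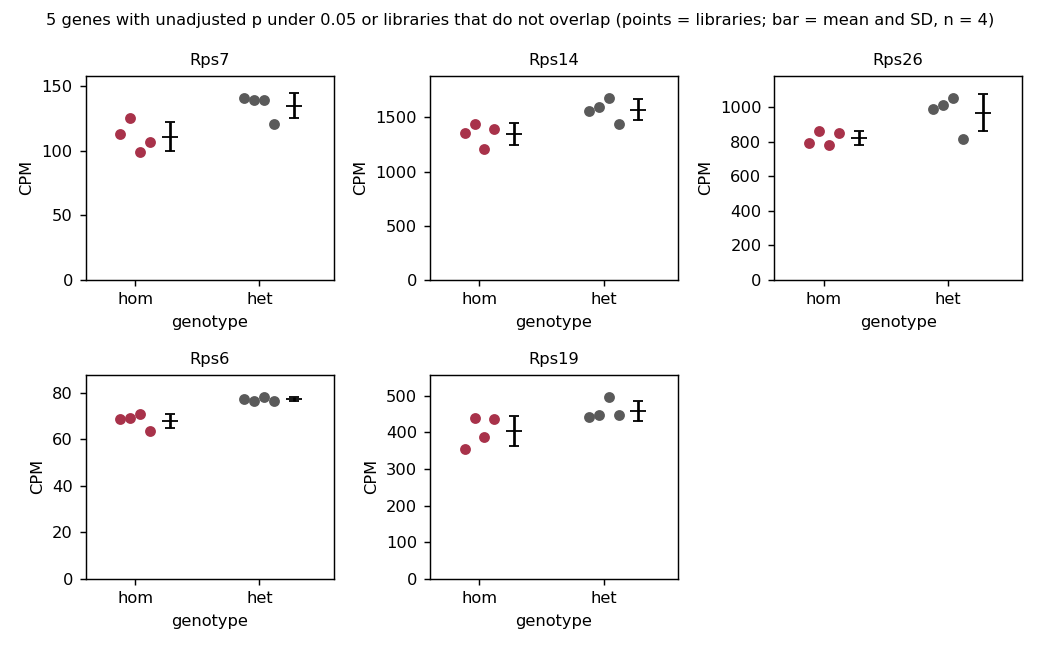
CPM of *Rps7*, *Rps14*, *Rps26*, *Rps6* and *Rps19* in the 4 hom and 4 het libraries (points), with mean and SD (n = 4 each), from 0. The difference between the genotypes is a small part of the level in every panel, and only *Rps7* and *Rps26* have a het library among the hom values.

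Of 561 tested pseudogenes of ribosomal protein genes, 411 had a fold change below 0 (median -0.10), and none passed the adjusted threshold (edgeR). At an unadjusted p under 0.05, 6 were lower and 0 higher, where 3.75% of all genes were lower and 5.4% higher. The pseudogenes share reads with the genes and add no separate evidence. *Gm9493*, a copy of *Rps7*, was at 293, 351, 250.4 and 298 CPM in hom and at 425, 391, 395 and 325 CPM in het libraries. Summed with their copies, the log2 fold changes were -0.33 for *Rps7*, -0.23 for *Rps14*, -0.24 for *Rps26*, and -0.19 for both *Rps6* and *Rps19*, and none of the 78 sums passed an adjusted p of 0.1 (lowest 0.434, edgeR). The median over the 78 sums was -0.12. These sums were added after the data were seen.

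**Figure D5:**
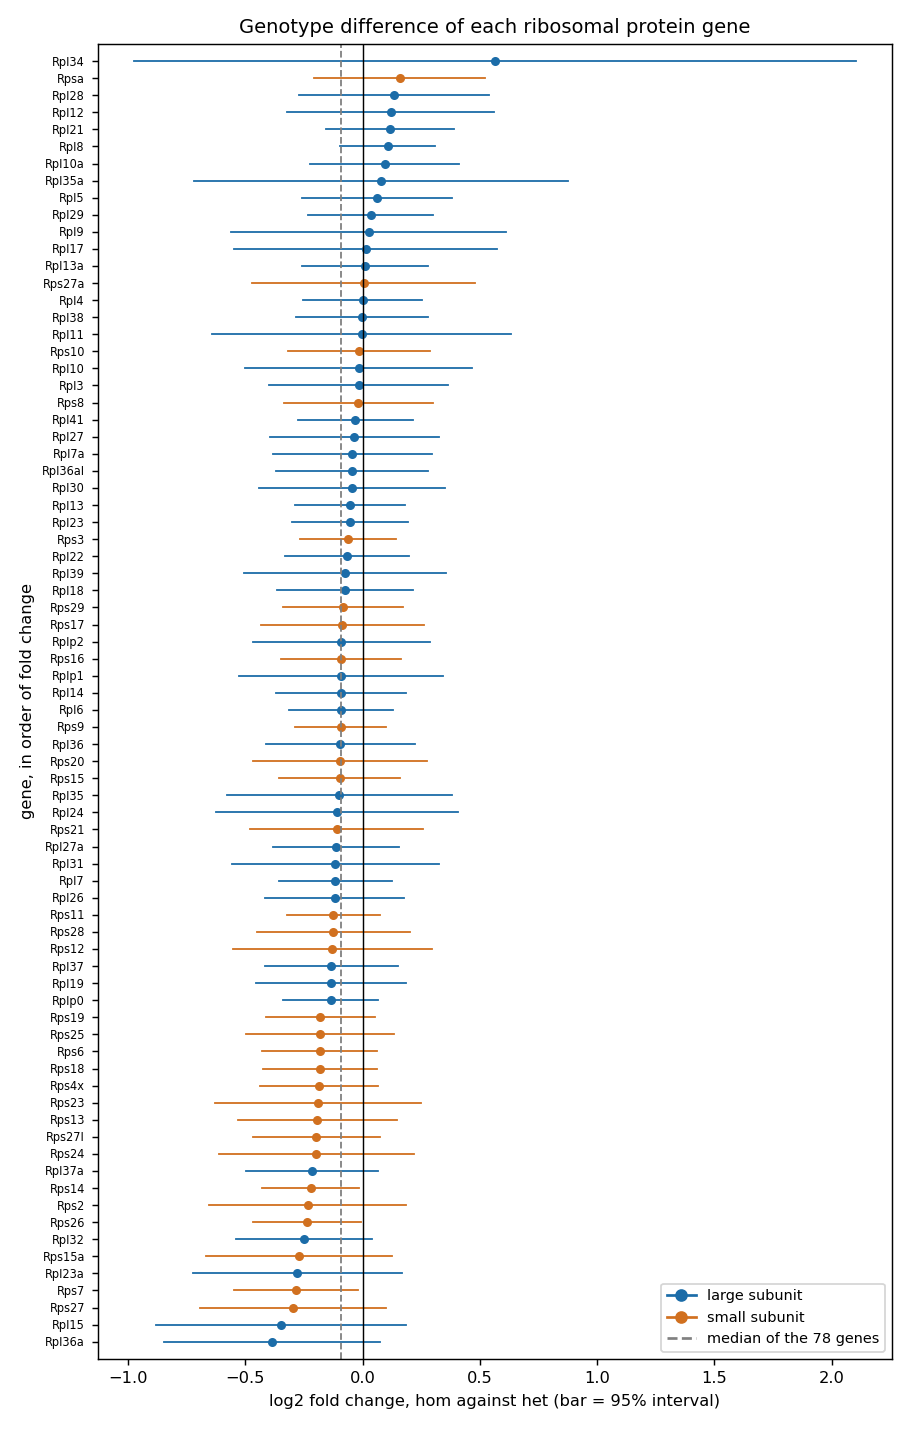
Log2 fold change (hom against het) of 76 of the 78 tested ribosomal protein genes with its 95% interval from edgeR, coloured by subunit; the dashed line is the median of all 78, -0.093. Most points lie below 0 (63 of all 78, and 17 of 78 when scaled by the counts alone), small-subunit genes are frequent in the lower part, and the intervals of all genes shown but *Rps7*, *Rps14* and *Rps26* include 0.

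The size of the differences that these data allow was small for most of the genes. The median standard error was 0.14 on the log2 scale, against 0.33 over all genes tested. The 78 genes had at least 97 counts in every library, and the comparisons with all genes given here were not matched on level. For 52 of the 78 genes, the 95% interval of the log2 fold change lay inside -0.5 to 0.5, against 9.35% of all genes, and for 77 inside -1 to 1, against 45.3%. *Rpl34* was the exception to the latter. For the 52 genes, a log2 change of 0.5 in either direction lay outside the interval.

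The proteins of the 5S particle and of the stalk showed no difference past the threshold. *Rpl5*, the partner of *Rpl11* in the 5S particle, was at 42.4 to 55.5 CPM in hom and 43.5 to 50.4 CPM in het libraries (log2 fold change 0.06, 95% interval -0.26 to 0.38). With its copies summed, the log2 fold change of *Rpl5* was of the opposite sign, -0.17 (SE 0.14). *Rpl11* had a log2 fold change of 0.00 with a wide interval of -0.64 to 0.63. *Rplp0*, the base of the stalk, was at 1308 to 1476 CPM in hom and 1431 to 1685 CPM in het libraries (log2 fold change -0.14, 95% interval -0.34 to 0.07). Its partners *Rplp1* (-0.09, interval -0.53 to 0.34) and *Rplp2* (-0.09, interval -0.47 to 0.29) had fold changes of like size. The stalk genes overlapped between the genotypes.

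Other members with known roles outside the bulk ribosome had means close to each other. *Rpl38*, required for the translation of *Hox* mRNAs in the embryo, was at 147 ± 15.0 CPM in hom and 147 ± 16.1 CPM in het libraries (95% interval of the log2 fold change -0.28 to 0.28). *Rpl13a*, which also acts in interferon-dependent translational silencing, was at 102 ± 9.27 and 102 ± 8.24 CPM (interval -0.26 to 0.28). *Rpl10*, which completes the peptidyl transferase centre late in assembly and is mutated in T cell leukaemia, was at 34.8 ± 7.86 and 35.2 ± 6.17 CPM (interval -0.50 to 0.47). *Rpl22* was at 427 ± 39.9 and 447 ± 52.5 CPM (interval -0.33 to 0.20). *Rps27a*, which is made as a fusion to ubiquitin, was at 31.1 ± 7.83 and 30.99 ± 3.14 CPM (interval -0.47 to 0.48, all SD, n = 4 each). For *Rpl38*, *Rpl13a* and *Rpl22*, the intervals leave room only for log2 differences below 0.5.

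*Rpsa*, the small-subunit protein also known as the laminin receptor, had the largest fold change above 0 among small-subunit genes, with 148, 146, 118 and 195 CPM in hom and 130.3, 134, 158 and 123 CPM in het libraries. Its log2 fold change of 0.16 (SE 0.16, adjusted p = 0.817, edgeR) came with a single high library, J_7136. *Rpl28*, *Rpl12* and *Rpl21* followed with 0.13, 0.12 and 0.12, all with overlapping libraries. In the other direction, *Rpl36a* had a log2 fold change of -0.39 (SE 0.21, adjusted p = 0.621, edgeR) with 30.7, 32.8, 20.2 and 23.2 CPM in hom and 32.7, 38.6, 39.0 and 29.4 CPM in het libraries. *Rpl15* (-0.35), *Rps27* (-0.30), *Rps7* and *Rpl23a* (-0.28 each) came next; with the copies summed, the value of *Rpl15* was -0.08. Of these 9 genes, only *Rps7* had an unadjusted p under 0.05.

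The genes differed more in how steady they were between mice. The SD of the log2 CPM over the 8 libraries had a median of 0.17 over the 78 genes and exceeded 0.4 in 4 of them. Over all genes tested, which were not matched to the 78 on level, the median was 0.42. *Rpl13* (SD 0.084), *Rps9* (0.090) and *Rpl6* (0.092) were steadiest. *Rpl13* ran from 122 to 146 CPM over all 8 libraries.

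*Rpl34*, a large-subunit protein, was by far the most variable, with an SD of 1.25. It was at 42.4, 318, 169 and 215 CPM in hom and at 43.4, 207, 213 and 40.2 CPM in het libraries. The libraries thus fell into a low set of J_7075, J_7079 and J_7139 and a high set of the other 5, and both sets held both genotypes. Its heaviest copy *Rpl34-ps1* stayed at 74.7 to 107 CPM and did not follow this pattern. The log2 fold change of 0.56, the largest above 0 of all 78 genes, had an interval of -0.98 to 2.11 (SE 0.69, adjusted p = 0.852, edgeR), which spans changes in either direction.

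*Rpl35a* (SD 0.55), which is mutated in some cases of Diamond-Blackfan anaemia, was at 50.9, 58.3, 38.1 and 69.9 CPM in hom and at 29.1, 90.3, 33.0 and 53.5 CPM in het libraries. The extremes, J_7079 and J_7100, were both het. *Rpl15* (SD 0.41) was at 110.0, 145, 82.8 and 65.5 CPM in hom and at 132, 155, 116 and 111 CPM in het libraries. Its copy *Gm8420* ran from 1.53 CPM in J_7075 to 104 CPM in J_7096, a far wider range than that of the gene, and had a log2 fold change of 0.70 (SE 1.18), opposite in sign to that of *Rpl15*. *Gm11942*, the heaviest copy of *Rplp1*, was at 49.6 CPM in J_7100, where *Rplp1* was highest (1020.4 CPM), and at 261 to 456 CPM in the other libraries.

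Counted on the genes alone, the balance between the subunits was 1.03 to 1.20. Counts on large-subunit genes were 1.08, 1.07, 1.20 and 1.06 times those on small-subunit genes in the hom and 1.03, 1.05, 1.05 and 1.05 times in the het libraries. All hom libraries lay above all het libraries, by a narrow margin outside J_7135. Without *Rpl4*, which was at 3370.5 CPM in J_7135 and at 2476 to 2975 CPM in the other libraries, the ratios were 0.870, 0.881, 0.896 and 0.841 in hom and 0.840, 0.862, 0.834 and 0.813 in het libraries, and the genotypes overlapped. As a ratio of sums over the members it was given no test.

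Genes around the ribosome were described from lists drawn up for this purpose. Of 78 mitochondrial ribosomal protein genes, which are built into the separate ribosome of the mitochondrion, 77 were tested, 50 had a fold change below 0 with a median of -0.074, and none passed the adjusted threshold. The cytosolic and the mitochondrial genes thus had medians of similar size. Of 20 further mRNAs of the TOP class or encoded with snoRNAs, 14 were below 0 (median -0.064), and none passed the threshold. 2 of the 20 (10%) had an unadjusted p under 0.05, both lower in hom, where 3.75% of all genes were lower at this p. *Gas5*, a snoRNA host with a TOP tract, was at 1897 ± 275 CPM in hom and 2365 ± 236 CPM in het libraries (log2 fold change -0.32, SE 0.12, adjusted p = 0.494, edgeR). *Eif3e*, a subunit of the initiation factor eIF3, was at 301 ± 38.0 and 369.6 ± 24.1 CPM (log2 fold change -0.30, SE 0.11, adjusted p = 0.487, edgeR). *Fau*, a small-subunit protein made as a fusion to a ubiquitin-like protein, was at 49.4 ± 0.970 CPM in hom and 50.9 ± 1.94 CPM in het libraries (log2 fold change -0.04).

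Translation initiation factors had fold changes of both signs, with 17 of 28 above 0 and a median of 0.077. *Eif4a1* (0.28) and *Eif4a2* (-0.28), the 2 closely related helicases of the cap-binding complex, pointed in opposite directions, each at an unadjusted p under 0.05, as did *Eif4g1* (0.42) and *Eif4e* (-0.37), the scaffold and the cap-binding protein. *Eif1* (0.29), *Eif3c* (0.28) and *Eif2s3x* (-0.60) also had an unadjusted p under 0.05. At this p, 4 of the 28 (14.3%) were higher and 3 (10.7%) lower in hom, where 5.4% and 3.75% of all genes were. None of the 28 passed the adjusted threshold (lowest 0.449, edgeR). Of 15 ribosome assembly factors and chaperones, 9 were above 0 (median 0.045) and none had an unadjusted p under 0.05. The 10 tested paralogues and neighbours, 4 of which (*Rps27l*, *Rpl36al*, *Rpl26* and *Rpl22*) are also among the 78 genes, had a median of -0.17. *Rps3a1*, a small-subunit gene whose symbol the rule misses, was at 414 ± 72.2 and 479 ± 49.5 CPM (log2 fold change -0.21, SE 0.14, adjusted p = 0.697, edgeR). *Rpl22l1*, the paralogue of *Rpl22*, had a log2 fold change of -0.32 (SE 0.17), *Rpl7l1* of -0.14 (SE 0.17) and *Rps4l*, annotated as a pseudogene, of -0.23 (SE 0.41), none past the threshold.

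In the S6 kinase pathway, *Mtor*, the kinase upstream of S6 phosphorylation, was at 20.4, 20.7, 33.7 and 33.4 CPM in hom and at 18.5, 16.2, 11.9 and 18.1 CPM in het libraries, with all hom libraries above all het libraries. Its log2 fold change was 0.74 (SE 0.25, adjusted p = 0.451, edgeR), and the other 9 tested genes of this list had an unadjusted p above 0.05. In the list of p53 surveillance, *Trp53* was at 100.1, 91.9, 168 and 82.9 CPM in hom and at 68.7, 72.1, 69.7 and 67.9 CPM in het libraries (log2 fold change 0.67, SE 0.22, adjusted p = 0.424, edgeR), and *Cdkn1a*, a target of p53 that stops the cell cycle, at 19.2, 16.9, 16.2 and 34.1 and at 13.8, 6.96, 7.94 and 12.9 CPM (log2 fold change 1.05, SE 0.33, adjusted p = 0.417, edgeR). Both were higher in every hom library than in every het library. *Ccng1*, another target of p53, separated the other way, with 50.3, 40.7, 51.1 and 19.1 CPM in hom and 51.7, 63.4, 63.4 and 55.7 CPM in het libraries (log2 fold change -0.54, SE 0.28, adjusted p = 0.612, edgeR). *Zmat3* (-1.31, SE 0.77) and *Eda2r* (-1.35, SE 1.46), also p53 targets and both under 6 CPM, had fold changes below 0. Of the 8 tested genes of this list, 5 had a fold change above 0 and 3 below (median 0.15). At an unadjusted p under 0.05, 2 (25%) were higher and 0 lower in hom, where 5.4% and 3.75% of all genes were. The libraries of 2 genes separated as higher and of 1 as lower, where 3.34% and 2.94% of all genes did. *Mdm2*, the target of free RPL5 and RPL11, had a log2 fold change of 0.27 (SE 0.20, adjusted p = 0.737, edgeR). None of the 8 tested genes of this list passed the adjusted threshold.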

How the data were processed

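Libraries (Smart-seq2) came from 8 mice, 4 of each genotype, 1 library per mouse. According to the submitters' processing notes and the methods, reads were prepared with bcl2fastq 2.19.1, aligned to mm10 with GSNAP and counted without strand by featureCounts 1.6.3. The authors deposited raw counts of uniquely mapped reads per gene, and a second table of signal, in which the counts are divided by 1 size factor per library (DESeq2 1.22.2) and rounded. The authors' gene length in bases, deposited beside the counts, was used for values per kb. The signal table served only to find the members.

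Genes were filtered with filterByExpr, scaled with TMM and tested with edgeR 4.0.16 (robust quasi-likelihood, genotype as the only term, two-sided, R 4.3.3) over 16445 genes, with Benjamini-Hochberg adjustment and a threshold of 0.1. Intervals are 95% intervals from the standard error and the degrees of freedom of the fit. A log2 CPM used a prior of 0.5 CPM. A count without molecular identifiers is not an independent molecule. On simulated counts with 200 changed genes among 15859, the test found 16% of genes at a log2 change of 1 and 64% at 2, and 8.05% of its calls were false.

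Alternatives were DESeq2 size factors, TMM without ribosomal protein and mitochondrially encoded genes, counts alone, 2 other filters, DESeq2 1.42.0, limma-voom (limma 3.58.1) with quality weights, the library run as a term and each library left out. The members and lists were chosen with earlier results of these data known. Genes were named by a rule: members with an adjusted p under 0.1 or an unadjusted p under 0.05, the 5 highest and 5 lowest per kb, the 5 largest fold changes in each direction, the 3 most and 3 least variable, any left out by the filter, a list of members with known roles and, of the companion lists, genes with an unadjusted p under 0.05. Separated genes, pseudogenes and *Fau*, *Mdm2*, *Ccng1*, *Zmat3* and *Eda2r* were named after their values were seen. A few genes and 1 sequence are not reported here, although the counts include those genes. Figures were drawn with matplotlib 3.10.9.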

Additional observations from a re-analysis of the deposited data

Results flagged for a closer look

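In groups of 4 libraries, a value was singled out where its gap to the nearest other library, relative to the range of the group, exceeded the critical value of Dixon's test; chance does this in about 1 of 20 groups, and 6 of 76 groups were singled out. *Rpl11* was at 16.5 CPM in the hom library J_7096, where the other hom libraries were at 29.8 to 31.2 CPM. *Rpl9* was at 36.9 CPM in the hom library J_7135, against 18.6 to 20.9 CPM in the others. *Rps19* was at 498 CPM in the het library J_7134, against 441 to 447 CPM, and *Rps7* at 120.3 CPM in the het library J_7139, against 139 to 141 CPM. The ratio of large to small subunit counts was 1.20 in the hom library J_7135, against 1.06 to 1.08, and 1.03 in the het library J_7079, against 1.05 in each of the others.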

How the results depend on the processing

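No ribosomal protein gene passed an adjusted p of 0.1 under any of the 17 alternatives. Scaling on the spike-in transcripts was not run, since the libraries held 0 to 36 counts on them where 1000 were needed. With counts alone, the number with an unadjusted p under 0.05 (4 lower, 0 higher) became 0 lower and 3 higher (*Rpl21*, *Rpsa* and *Rpl8*). Under this scaling, 1.4% of all genes were lower and 11% higher at this p. The number was 0 lower with a filter of 1 count in any library, 1 with a filter of 10 counts in every library and 7 with the library run as a term. It ranged from 0 to 7 lower when libraries were left out. The median log2 fold change was 0.093 with counts alone (all genes 0.19) and lay between -0.16 and -0.066 when libraries were left out. The ratio of the hom to the het mean share of counts (1.06) was 0.987 without mitochondrially encoded genes. With counts alone, 0 genes separated as lower and 3 as higher, where 1.03% of all genes separated as lower and 7.02% as higher. The number of genes separated as lower (4) was 2 with pseudogenes summed. It ranged from 4 to 17 lower, and from 0 to 1 higher, when libraries were left out, where 4.36 to 5.32% of all genes separated as lower and 4.55 to 5.46% as higher. Of 36 named members, the fold change, past no threshold, changed sign in 15 with counts alone and in 0 to 7 under each other alternative. No paired analysis was possible because the labels give the genotypes no shared replicate numbers. The tested genes had at least 97 counts in every library, and the sharing of reads with pseudogenes limits what their levels mean.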
